A study of Mus musculus with 4 samples.

Results

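The 87 genes described here encode transcription factors that pattern the embryonic body. They were taken by symbol from the 23282 symbols listed in the count tables: each gene named Hoxa, Hoxb, Hoxc, Hoxd, Irx, Meis, Pbx, Zic, Tbx, Msx, Dlx or Prrx plus a number (with nothing after the number), and the sine oculis homeobox genes by the same rule, such as Six5. The rule uses symbols only, but it was set with earlier results of these data known. The families hold 39 Hox, 13 Tbx, 6 Irx, 6 Dlx, 6 sine oculis homeobox, 5 Zic, 4 Pbx, 3 Meis, 3 Msx and 2 Prrx genes. Expression was compared between the endothelial cells (ECs, the inner lining of vessels) of dura mater and brain parenchyma. The dura mater is the outer membrane between the skull and the brain. All mice were C57BL/6J and 8 weeks of age, with no treatment or engineered allele given in the labels, and there were 2 libraries per tissue. The cells had been sorted by FACS as positive for CD31 and negative for CD45 and TER-119, and brain ECs had first been enriched with magnetic beads. Whether a library came from 1 mouse or from pooled mice is not stated, so p-values measure only the spread between these libraries, which may be technical.

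Homeodomain, Zic and T-box proteins bind DNA and set which genes a cell uses according to its place in the body. Hox genes lie in 4 clusters and are used in an order along the body axis that follows their order in the cluster. Pbx and Meis proteins are partners that bind DNA together with Hox proteins. Irx, Pbx and Meis belong to the TALE class, whose homeodomain has a longer loop between its helices than that of the other homeodomain proteins described here. Zic proteins bind DNA through zinc fingers and T-box proteins through the T-box. Cells keep parts of these codes in the adult, also in vessels and in the meninges, which over the forebrain come largely from the neural crest.

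The homeobox members have in common a stretch of the third helix of the homeodomain, the helix that contacts the bases of DNA. It was found by translating the annotated transcripts, as the codons for tryptophan, phenylalanine, any residue and asparagine. All 69 homeobox members held it, and the 18 Zic and T-box members did not. The following stretches of 36 coding bases are shown because they tell apart the families described next. They are taken from the GENCODE M21 transcripts on GRCm38, printed 5′ to 3′ on the coding strand, and the capitals mark those 4 codons.
Irx3: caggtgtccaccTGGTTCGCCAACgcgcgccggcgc
Irx5: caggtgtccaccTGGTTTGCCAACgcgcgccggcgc
Pbx2: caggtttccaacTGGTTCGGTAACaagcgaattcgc
Meis3: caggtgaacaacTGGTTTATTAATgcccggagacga
Six5: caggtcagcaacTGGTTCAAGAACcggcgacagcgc
Hoxd8: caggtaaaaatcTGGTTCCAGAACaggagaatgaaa

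The Irx3 stretch lies at chr8:91800514-91800549 (minus strand) and the Irx5 stretch at chr8:92359762-92359797 (plus strand), each within 1 exon. The third of the marked codons coded for alanine in the 6 Irx genes, glycine in the 4 Pbx genes and isoleucine in the 3 Meis genes. It coded for lysine in the 6 sine oculis homeobox genes and glutamine in the 39 Hox, 6 Dlx, 3 Msx and 2 Prrx genes. Irx3 and Irx5 differed at 1 of these 36 bases. The libraries read the 3′ ends of transcripts. The longest run of identical bases between Irx3 and Irx5 was 50 over whole transcripts and 9 within their last 500 bases. For Tbx2 and Tbx3 these runs were 14 and 10 bases, for Zic1 and Zic2 they were 35 and 27, and for Meis2 and Meis3 (28 bases) and Pbx2 and Pbx3 (17 bases) the run was as long in the last 500 bases as over the whole.

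Library totals ran from 13518973 to 16096203 counts. Counts per symbol fell into a low and a high population, so a gene is called counted here at 64 or more counts in a library and near 0 at 7 or fewer. Dura mater replicate 2 stood apart, with 42.2% of all symbols counted against 28.4% to 31.3% in the other libraries, and only 881 symbols at 1 to 7 counts against 2117 to 2436. The labelled cell types were met by their markers. The 8 pan-endothelial genes were counted in every library. The 6 brain EC genes were each lower in dura mater ECs, and Plvap, Aqp1, Selp and Fabp4 were each higher there (edgeR adjusted p under 0.05 for each). The paper had picked Aqp1 and Fabp4 from its own sequencing of these cells as enriched in dura mater ECs. Their higher level is therefore no separate check of the label. Genes of other cells were present too. The 8 mural cell genes summed to 621 and 1045 CPM (counts scaled by effective library size) in brain and to 1126 and 595 CPM in dura mater, most of it from Acta2 and Myh11. Of these genes, Kcnj8 (0 and 0 against 468 and 410 counts), Notch3 (5 and 0 against 99 and 254) and Cspg4 (0 and 1 against 263 and 65) were near 0 in brain and counted in dura mater, as Irx3, Irx5 and Tbx2 were. Kcnj8 passed DESeq2 (adjusted p = 0.00744) and not edgeR (adjusted p = 0.466). The other mural genes did not share that pattern. Rgs5 (13.3 against 5.56 CPM on average) and Acta2 (574 against 395) had lower means in dura mater. Rgs5, Acta2, Myh11 and Pdgfrb overlapped between the tissues, and Tagln was higher in both dura mater libraries. The 9 fibroblast and meningeal genes summed to 443 and 508 CPM in brain and to 609 and 614 CPM in dura mater, and without Foxc1 to 8.21 and 52.1 CPM in brain and 407 and 380.1 CPM in dura mater. Dcn (1.12 against 95.1 CPM on average), Col1a1 (2.28 against 66.2) and Col1a2 (1.31 against 100.9) were the members of that list that passed DESeq2, and 0 passed edgeR (3 at an unadjusted p under 0.05, Foxc1 among them with lower counts in dura mater). Pdgfra had at most 1 count and Lum at most 4 in any library. The neuron, astrocyte, oligodendrocyte and leukocyte lists each summed to at most 106 CPM in any library, and the 6 bone and cartilage genes to 106 to 154 CPM. The 4 erythroid genes, 24330 and 34564 CPM in brain, stood at only 2083 and 962 CPM in dura mater. The part of such RNA in the values that follow was not tested.

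Most of the 87 factors were silent or near it in both tissues. Of them, 41 had 0 counts in every library, and 21 more had counts but never above 7. This left 25 genes above 7 counts in any library, of which 23 reached 64. Among all symbols listed, 47.5% reached 64 counts somewhere, against 26.4% of the factors, and 48.8% stayed at 7 or fewer, against 71.3% of the factors. The silent group held 35 of the 39 Hox genes, all 6 Dlx genes and 8 of the 13 Tbx genes. It also held Irx1, Irx2, Irx4 and Irx6, as well as Msx2 and Msx3. A library with 0 counts of a gene still allows 3 counts, that is 0.184 to 0.227 CPM. These limits cover counting error only.

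The share of factors counted was 10.3% and 11.5% in the brain libraries, 11.5% in dura mater replicate 1 and 23.0% in dura mater replicate 2. This share differed more between the dura mater libraries than between dura mater replicate 1 and either brain library. The 23 counted genes fell into few patterns. Zic2, Pbx2, Pbx3, Tbx3 and Six5 were counted in every library (5.75% of the factors, against 18.3% of all symbols), Irx3, Irx5 and Tbx2 in both dura mater libraries and near 0 in both brain libraries, and 10 genes in 1 library with at most 7 counts in the other 3 (11.5% of the factors, against 7.66% of all symbols). Tbx1, Msx1 and Meis3 were among the remaining 5.

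**Figure D1:**
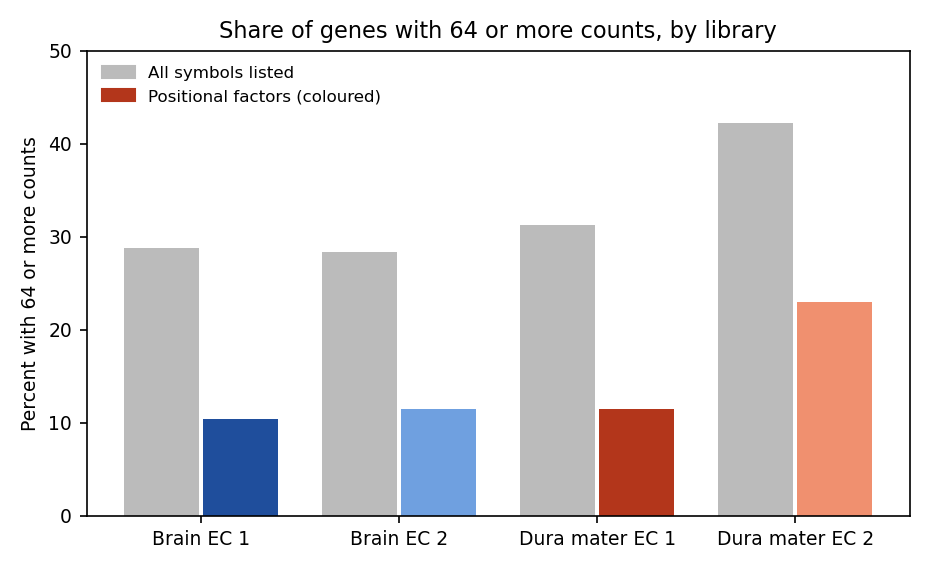
Percent of genes with 64 or more counts (vertical axis) in each library (horizontal axis), for all symbols listed (grey bars) and for the 87 positional factors (coloured bars). Both shares are highest in dura mater EC library 2, at 42.2% and 23.0%.

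The Iroquois genes Irx3 and Irx5, TALE factors known from heart, limb and neural patterning, were counted in dura mater ECs, with no more than 1 count in a brain EC library. Irx3 (chromosome 8, 91798525 to 91802067, minus strand) was not read in either brain library (0 counts each), whereas dura mater gave 6462 and 7659 counts. The groups lay far apart and the dura mater libraries were close to each other. Its level was 476 ± 8.996 CPM in dura mater ECs (SD, n = 2), at least 2193-fold higher than the level that 3 counts per brain library would give. Irx3 was higher in dura mater ECs in the edgeR test (log2 fold change 11.74, SE 0.72, adjusted p = 0.0232) and under each alternative that could be fitted, with an adjusted p between 3.1e-33 and 0.0250. In bulk samples, fewer cells that express a gene and less RNA per cell cannot be told apart. Exons of the antisense gene Irx3os overlap 4.49% of the exon bases of Irx3, and whether strand was used in counting is not stated.

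Irx5 (chromosome 8, 92357625 to 92376286, plus strand) gave 0 and 1 counts in brain and 606 and 209 in dura mater. The groups did not overlap, but the dura mater libraries were less close, at 45.2 and 12.8 CPM. The ratio of dura mater to brain counts was 760, with an exact 95% interval of 136 to 30049 from counting error alone. The log2 fold change of 7.36 (SE 3.02) missed the threshold in edgeR (adjusted p = 0.466) and passed it in DESeq2 (adjusted p = 0.0193), the lowest of its alternatives, the highest being 0.995. Irx3 and Irx5 lie 556 kb apart on chromosome 8 and are read in opposite directions. Irx6, 298 kb beyond Irx5, had 0 counts in every library.

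Of the 87 factors, Irx3 alone passed the edgeR test at an adjusted p under 0.05, where 0.610% of the 9347 genes tested did. Only 13 factors passed the count filter and were tested, and a gene could enter the test through 1 tissue alone. Factors counted in 1 library and near 0 in the others, such as Tbx18 and Prrx1, were not tested with all libraries. At an unadjusted p under 0.05 there were 6 of the 13 factors tested, beside 10.01% of all genes tested. Among these 6 were Irx3, Irx5, Tbx2, Zic2 and Tbx3. DESeq2 passed 4 of the 13 factors tested, among them Irx3, Irx5 and Zic2, beside 8.67% of all genes tested. With 1 library left out the edgeR log2 fold change lay between −2.13 and −1.88 for Zic2, against −1.96 with all libraries. For Tbx3 it lay between −2.54 and −1.57, against −2.03. The log2 fold change of Irx3 lay between 11.66 and 11.76 in these fits. Between 15 and 25 factors passed the count filter when 1 library was left out, against 13 with all libraries. In these fits the tissue left with 1 library is assumed to vary like the other.

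**Figure D2:**
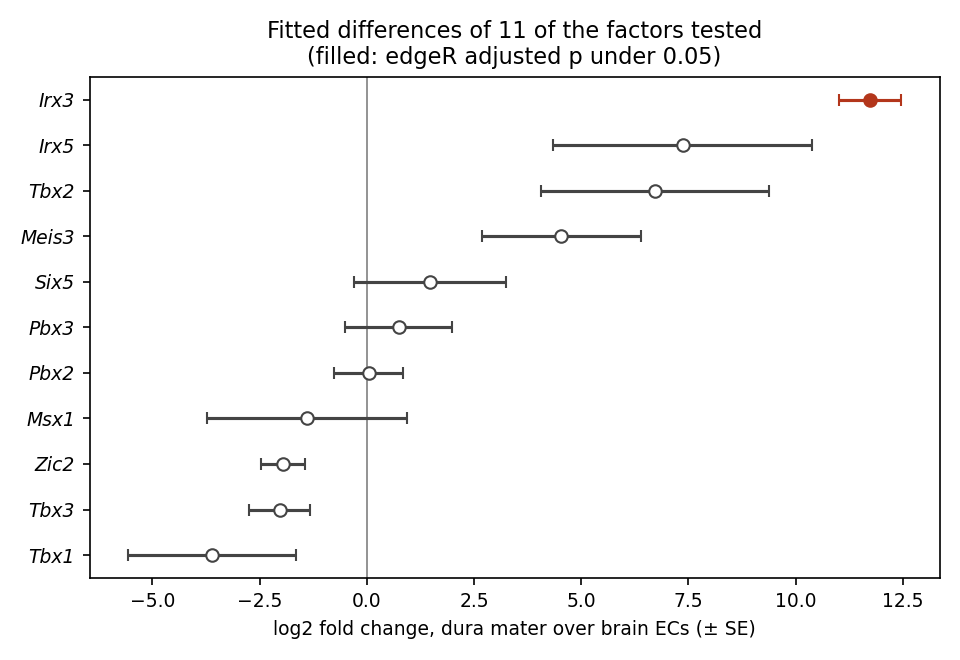
Fitted log2 fold change of dura mater over brain ECs (horizontal axis, points) with its SE (bars) for 11 of the factors that passed the count filter. Irx3 (filled, 11.74) passed the edgeR test at an adjusted p under 0.05, and the open points did not.

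The pattern of Irx3 and Irx5, counted in both dura mater libraries and near 0 in both brain libraries, was met by 3 factors, the third being Tbx2. That is 3.45% of the 87, close to the 3.27% of all symbols that met it, so the count does not set the factors apart. The reverse pattern was met by 0 factors and by 0.202% of all symbols. Without dura mater replicate 1 the count of factors was 11 (12.6%, against 8.77% of all symbols). Without the other libraries in turn it was 3 or 4 (3.45% to 4.60%), against 5.02% to 6.07% of all symbols. With limits of 10 and 3 counts it was 4, as Meis3 joined, against 3.61% of all symbols.

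Zic2, a zinc finger factor of early forebrain patterning, had higher counts in brain ECs. It (chromosome 14, 122475435 to 122479852, plus strand) gave 4775 and 3705 counts in brain and 986 and 1360 in dura mater. It was read in every library, without overlap between the tissues. Its level was 305 ± 34.9 CPM against 78.4 ± 6.92 CPM (SD, n = 2). The log2 fold change of −1.96 (SE 0.51) missed the threshold in edgeR (adjusted p = 0.271) and passed it narrowly in DESeq2 (adjusted p = 0.0480), with a range of 0.0218 to 0.771 over the alternatives.

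Zic1, a marker of meningeal and cerebellar cells, had 343 counts in brain replicate 2 and at most 2 in any other library. It overlaps its neighbour Zic4 head to head on chromosome 9, yet Zic4 had 81 counts in dura mater replicate 2 and 0 elsewhere. Zic5, whose start lies 10 kb from that of Zic2, had 0 counts in every library.

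**Figure D3:**
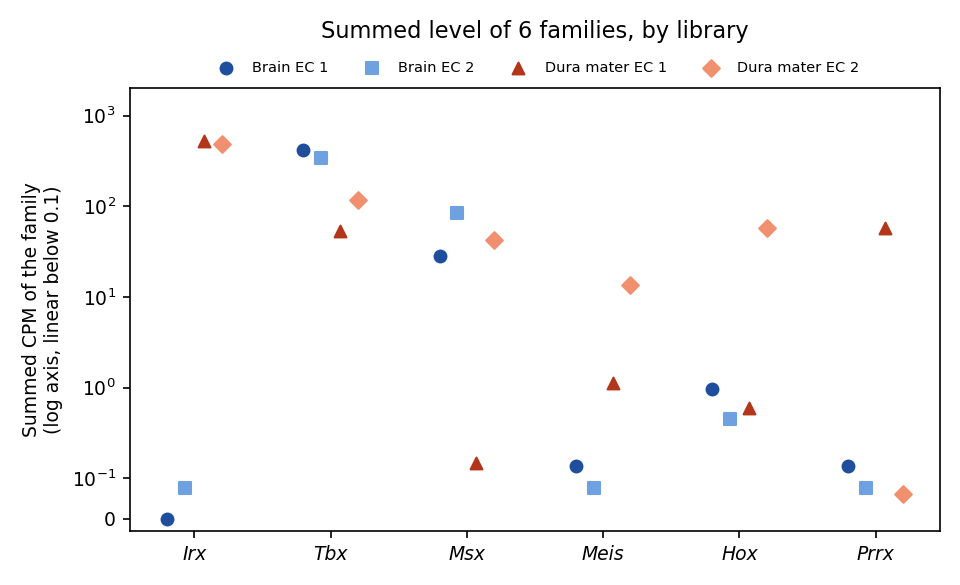
Summed level of 6 families in CPM (vertical axis, log scale and linear below 0.1) by family (horizontal axis) and library (symbols). The Tbx sum is higher in both brain EC libraries, the Irx sum in both dura mater EC libraries, and the Hox, Meis and Prrx sums are high in only 1 dura mater EC library each.

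Of the 13 T-box genes, 0 passed edgeR or DESeq2, and Tbx2 and Tbx3 had an unadjusted p under 0.05 in edgeR. Tbx1, a factor of pharyngeal, heart and vessel development, gave 1912 and 1664 counts in brain and 2 and 338 in dura mater (chromosome 16, 18580979 to 18590671, minus strand). Brain ECs held 129 ± 4.33 CPM, and both dura mater libraries lay lower, at 0.149 and 20.7 CPM. The log2 fold change was −3.61 (SE 1.96), far from the threshold (edgeR adjusted p = 0.597), and it was −8.79 without dura mater replicate 2 and −2.77 without dura mater replicate 1.

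Tbx3, a repressor known from limb, breast and heart conduction tissue, gave 4125 and 2018 counts in brain and 510 and 1121 in dura mater (chromosome 5, 119670669 to 119684724, plus strand). The groups did not overlap. The levels were 219 ± 93.4 and 53.3 ± 21.7 CPM, and the log2 fold change was −2.03 (SE 0.71, edgeR adjusted p = 0.466, range 0.0140 to 0.771). Its antisense gene Tbx3os1 overlaps 1.74% of its exon bases.

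Tbx2, the closest relative of Tbx3, had a fitted difference of the opposite sign (chromosome 11, 85832551 to 85841948, plus strand). It was not read in brain (0 counts in each library) and gave 192 and 242 counts in dura mater, or 14.6 ± 0.358 CPM. The dura mater libraries were nearly equal. The level was at least 67.2-fold higher than 3 counts per brain library, and the log2 fold change of 6.72 (SE 2.66) missed the threshold (edgeR adjusted p = 0.466, range 0.136 to 0.995). Tbx4, 44 kb beyond Tbx2, had 0 counts throughout.

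Tbx18, known from mural cells and the coverings of organs, had 860 counts in brain replicate 2 and 0, 0 and 1 counts in the other libraries. The antisense gene D030062O11Rik overlaps 20.6% of its exon bases. Tbx15, a factor of skeletal and skin mesenchyme, had 210 counts in dura mater replicate 2 and 0, 0 and 1 elsewhere. The other 8 Tbx genes stayed at 1 count or below.

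Pbx2 and Pbx3, partners of Hox and Meis proteins, were read in both tissues. Pbx2 (chromosome 17, 34591266 to 34597400, plus strand) gave 1090 and 1308 counts in brain and 1410 and 1219 in dura mater, so the groups overlapped. Its log2 fold change was 0.05 (SE 0.80, edgeR adjusted p = 1.00), and its sign turned under RLE scaling, in DESeq2 and without brain replicate 1 or dura mater replicate 1. Exons of Gpsm3 on the same strand cover 6.24% of its exon bases. Pbx3 overlapped between groups as well, with 252 and 979 counts against 1446 and 732 (log2 fold change 0.74, SE 1.26, edgeR adjusted p = 1.00), and its sign turned without dura mater replicate 1. Pbx4 had 0 counts in every library.

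The Meis genes were low. Meis3 was at 0 counts in each brain library and gave 13 and 85 counts in dura mater (0.969 and 5.21 CPM). The mean of these levels was 14.2-fold higher than 3 counts per brain library would give, a limit that covers counting error only. Its log2 fold change was 4.54 with an SE of 1.86 (edgeR adjusted p = 0.466). Meis2 had 137 counts in dura mater replicate 2 and at most 2 in the other libraries. Meis1 had 1 count in all, in brain replicate 2.

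**Figure D4:**
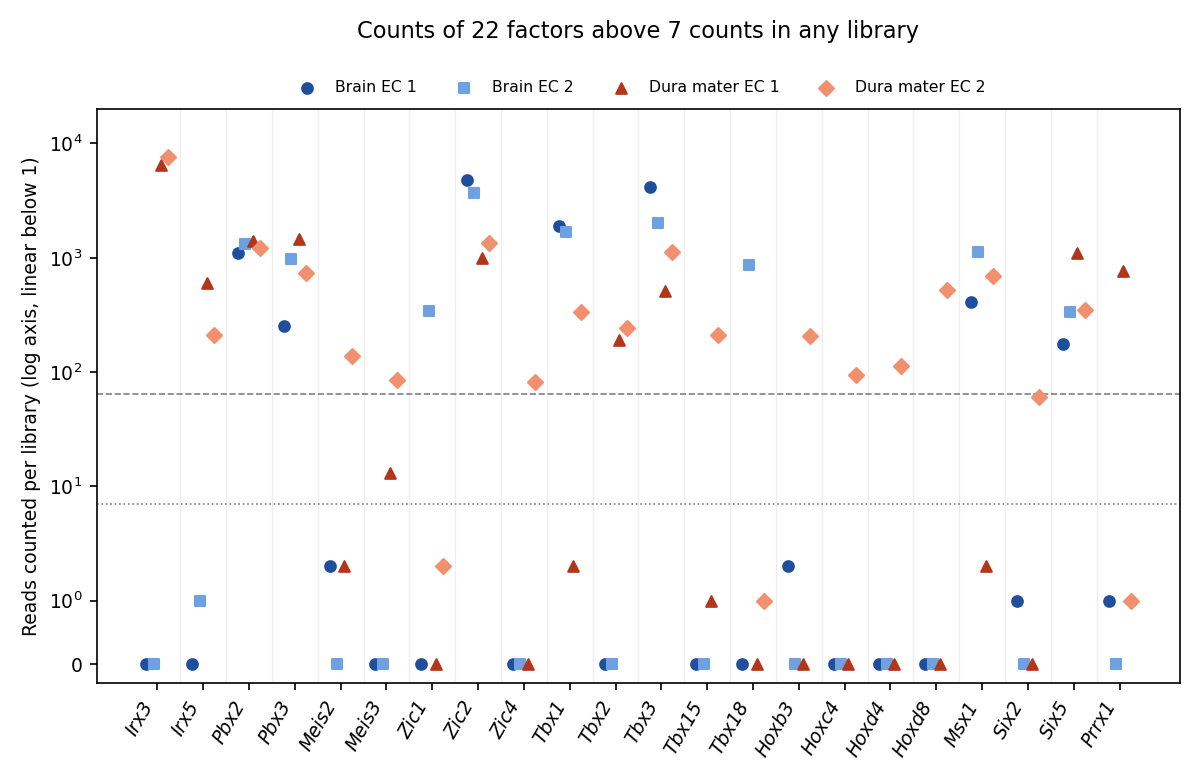
Counts in each library (vertical axis, log scale and linear below 1) of 22 factors with more than 7 counts in any library (horizontal axis), with the limits of 64 and 7 counts drawn as dashed and dotted lines. Irx3, Irx5 and Tbx2 stand above the upper line in both dura mater EC libraries and below the lower line in both brain EC libraries, while Hoxb3, Hoxc4, Hoxd4 and Hoxd8 stand above the upper line in dura mater EC library 2 alone.

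The 39 Hox genes, which mark position along the body axis, were nearly silent outside dura mater replicate 2. The highest count of a Hox gene in the other 3 libraries was 6, for Hoxc8 in brain replicate 1. In dura mater replicate 2, Hoxd8 had 526 counts, Hoxb3 206, Hoxd4 113 and Hoxc4 94. Each of these 4 had at most 2 counts in the other dura mater library and in the brain libraries. They belong to the paralog groups 3 to 8, limits that are the lowest and highest group among these 4 genes. Those groups hold 18 Hox genes, of which only these 4 were counted and 6 had 0 counts in every library. The 5 genes of groups 1 and 2 had 0 counts in every library, and the 16 genes of groups 9 to 13 had at most 2. Hotairm1, a non-coding RNA of the HoxA cluster, had 49 counts in dura mater replicate 2 and 0 elsewhere.

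These Hox counts are a reading of 1 library. Besides the 4 Hox genes, Meis2, Tbx15 and Zic4 were counted in dura mater replicate 2 and near 0 in the other 3 libraries, which made 7 of the 87 factors. Among all symbols 5.19% showed that pattern. Hoxb3os, an antisense gene, overlaps 52.9% of the exon bases of Hoxb3, and on the same strand Gm28230 overlaps 39.1% and Hoxd3 13.2% of those of Hoxd4. Hoxd3 had 0 counts, and no count is given here for Gm28230.

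Six5, Six2, Prrx1 and Msx1, of families known from craniofacial, muscle and limb development, showed wide spread between libraries. Six5 gave 175 and 333 counts in brain and 1102 and 351 in dura mater, with overlap only on the CPM scale (12.1 and 25.2 against 82.2 and 21.5). The log2 fold change of Six5 was 1.47 (SE 1.78, edgeR adjusted p = 1.00) and 0.06 without dura mater replicate 1. Six2, which acts in kidney and skull formation, had 60 counts in dura mater replicate 2 and at most 1 in any other library. Six3, Six4 and Six6 had 0 counts throughout.

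Prrx1, a factor of limb and craniofacial mesenchyme, had 765 counts in dura mater replicate 1 and at most 1 count in each other library, dura mater replicate 2 included. Prrx2 had at most 1 count in any library. In the same dura mater replicate 1, Runx2, a factor of bone formation, had 820 counts against at most 1 in the other libraries. Of the other bone and cartilage markers, Sp7, Bglap and Acan had 0 counts in every library, while Sox9 (18 against 207 counts) and Alpl (1227 against 2199) were lower in dura mater replicate 1 than in replicate 2. Zic1 and Tbx18 were counted in brain replicate 2 alone. There the mural genes Rgs5 (342 against 11 counts) and Acta2 (10644 against 4979) and the fibroblast gene Col3a1 (579 against 63) were higher than in brain replicate 1. Tagln (57 against 772) and Myh11 (2276 against 2878) were lower, and Dcn (15 against 16) and Foxc1 (6035 against 6309) were close. The part of these cells in the counts of Prrx1, Zic1 and Tbx18 was not tested.

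Msx1, a factor of neural crest and craniofacial tissue, gave 410 and 1128 counts in brain and 2 and 699 in dura mater. The groups overlapped, and the log2 fold change was −1.40 (SE 2.33, edgeR adjusted p = 1.00). The antisense transcript Msx1os, whose RefSeq span of 2188 bases lies within that of Msx1 (chromosome 5), was listed with 410, 1128, 2 and 647 counts in the same order. In 3 of the 4 libraries the values were equal to those of Msx1, so the reads of Msx1 and Msx1os cannot be told apart.

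Of the 89 genes listed as cofactors, relatives, other homeobox genes, Hox regulators or overlapping transcripts, 36 were tested. In edgeR 0 passed, 4 had an unadjusted p under 0.05 and DESeq2 passed the same 4: Tgif1, Tgif2, Prox1 and Meox1. That is 11.1% of those tested, close to the 10.01% (unadjusted) and 8.67% (DESeq2) of all genes, so the count does not set the lists apart. Tgif2, a TALE repressor, gave 0 and 1 counts in brain and 4307 and 1280 in dura mater (log2 fold change 10.15, SE 1.45), close to the threshold (edgeR adjusted p = 0.0540, DESeq2 adjusted p = 1.8e-09). Tgif1, its closest relative, had 488 and 282 counts against 5391 and 1852 (log2 fold change 3.22, SE 0.85, edgeR adjusted p = 0.281).

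Meox1, a homeobox gene of somites and vessels, was at 0 counts in each brain library and gave 944 and 1683 in dura mater (edgeR adjusted p = 0.189). The mean dura mater level was 400.0-fold higher than 3 counts per brain library would give, a limit that covers counting error only. Prox1, the homeobox factor of lymphatic ECs, was likewise at 0 in brain and gave 492 and 125 counts in dura mater (edgeR adjusted p = 0.466). The 5 lymphatic markers, Prox1 among them, summed to 123 and 145 CPM in brain and 348 and 572 CPM in dura mater. Flt4 held nearly all of the brain sum (123 and 144 CPM) and differed little (log2 fold change 0.67, edgeR adjusted p = 0.888). Pdpn had 3 and 7 counts in brain and 3 and 45 in dura mater. Prox1, Lyve1 and Ccl21a were at 0 in both brain libraries and counted in both dura mater libraries. That is close to the pattern of Irx3, Irx5, Tbx2 and Meox1, which Kcnj8, Notch3 and Cspg4 also met. Dcn, Col1a1 and Col1a2 were higher in dura mater too, while Acta2 and Foxc1 were lower there on average. The part of lymphatic, mural and fibroblast cells in those counts was not tested. The Eya and Dach genes, cofactors of sine oculis homeobox proteins (6 genes, 3 tested), the Zic relatives (6 genes, 1 tested) and the Hox regulators (13 genes, 10 tested) had 0 genes past the threshold in either tool and 0 at an unadjusted p under 0.05 in edgeR.

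Promoter windows of 300 bases around the RefSeq start (GRCm38.p6) were given for 54 of the 87 factors (60 windows). They were rich in CpG dinucleotides, with a median of 16 per window (range 1 to 45) against 7 over all 32851 windows. Factors counted in a library had a median of 15 and factors near 0 in every library a median of 17.5, with ranges of 4 to 31 and 1 to 45.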

How the data were processed

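For each of the 4 libraries the authors deposited unnormalized read counts by gene symbol. The libraries are of the QuantSeq 3′ type, sequenced on a NextSeq 500. According to the methods of the study, reads were mapped with TopHat and abundances taken with cufflinks, while the submitters' processing notes name Bowtie2, edgeR and the build mm10. The counting step, the annotation, use of strand and molecular identifiers are not given in the sources used here.

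Groups were taken from the tissue labels. All symbols entered 1 quasi-likelihood fit (edgeR 4.0.16, R 4.3.3, TMM scaling, filterByExpr, tissue as the only term, Benjamini-Hochberg over 9347 genes, threshold 0.05), since the cufflinks test needs alignments, not used here. A positive log2 fold change means higher in dura mater, with 2 prior counts. Its SE was taken as its size over the root of the F statistic. CPM values are counts over the TMM-scaled library size. DESeq2 1.42.0 was run on the same genes. The scripts were checked on simulated data. Recovery of the set fold changes was required only in an edgeR run with less spread between libraries than in these data. Alternatives were limma-voom (limma 3.58.1), RLE and library-size scaling, other count filters, a replicate block, a prior count of 0.5, an adjusted p of 0.01, thinning to 13518973 counts and each library left out in turn.

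The factors, lists and limits were chosen with earlier results of these data known. Factors with an adjusted p under 0.05 or with 64 or more counts in any library were named with their counts. Some factors and sequences are not reported here. From each related list up to 6 genes were named that passed the test, or that were counted in both libraries of 1 tissue and near 0 in the other. Other genes were named after their values were seen. Gene positions and overlaps are from GENCODE M21 (GRCm38), which matched all 87 symbols; the build behind the counts is named mm10 and the annotation may differ.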

Additional observations from a re-analysis of the deposited data

How the results depend on the processing

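The common biological coefficient of variation was 1.39, and 74 of the 87 factors did not pass the count filter and were not tested. Among them were factors counted in 1 library alone, such as Tbx18 and Prrx1. Over all genes, 57 passed in edgeR. The count was 810 in DESeq2, 326 without a filter on low counts, 141 with at least 10 counts in every library, 224 with the replicate block and 80 to 740 with 1 library left out. It stayed between 53 and 80 with limma-voom, RLE and library-size scaling. Of the factors, 1 passed in edgeR (Irx3). The count was 4 in DESeq2, 2 without a filter on low counts, 2 with the replicate block and 1 to 4 with 1 library left out. At an adjusted p under 0.01 it was 0. With at least 10 counts in every library 6 factors were tested, Irx3 not among them, and 1 passed. Factors counted in both dura mater libraries and near 0 in both brain libraries numbered 3, and 3 to 11 with 1 library left out. Libraries with the same number did not deviate together (correlation across genes −0.0249), and nothing says that they share mice, so they were not treated as paired. The log2 fold change of Pbx2 turned to −0.0248 in DESeq2 and with RLE scaling and ranged from −0.36 to 0.25 with 1 library left out. That of Pbx3 ranged from −0.17 to 2.08 with 1 library left out. The signs of the other 11 factors tested held under each alternative that could be fitted. The cause of these changes was not tested.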
